A study of Mus musculus with 2 samples.

Results

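Dividing Atoh1-positive granule cell progenitors are droplet barcodes of the newborn mouse cerebellum that carried the granule lineage gene Atoh1 together with transcripts of proliferating cells. Members were chosen by their measured UMI counts. A barcode with 500 or more genes detected and mitochondrial UMIs of no more than 10% belonged to the group when it had at least 1 UMI of Atoh1, at least 3 UMIs of Mki67 and Top2a together, at most 2 UMIs of the glial glutamate transporter gene Slc1a3 and 0 UMIs of the GABA synthesis gene Gad2. A UMI, or unique molecular identifier, stands for 1 captured transcript molecule. The rule found 816 of 16547 barcodes that met the limits on genes and mitochondrial UMIs. Of these, 432 of 8194 were in the Cxcr4+/1013 library and 384 of 8353 were in the Cxcr4+/+ library. Levels of Atoh1, Mki67, Top2a, Slc1a3 and Gad2 are therefore given only as a description.

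The mutant library came from Cxcr4+/1013 mice, which carry 1 allele of the receptor gene Cxcr4 with a shortened C-terminal tail, and the control library came from Cxcr4+/+ mice. Both genotypes were labelled with the strain B6.129S2-Cxcr4tm1.1Bala and age P1, the first day after birth. Lobules III-IV were dissected, dissociated with papain and taken through 10X Genomics droplet capture, with 1 library per genotype. The genotype label reads Cxcr4+/1013 and the extraction text reads Cxcr4+/-, and none of the sources used here states how many animals went into a library. Members of both libraries included barcodes with Xist and barcodes with Y-linked transcripts, so each library pooled animals of both sexes.

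Granule cell progenitors arise from the rhombic lip, spread over the surface of the cerebellum and divide in the external granule layer, where Sonic hedgehog released by Purkinje cells is their main mitogen. Atoh1 keeps them able to respond to Sonic hedgehog, and cells that leave the cycle switch on Neurod1 and other neuronal genes before they migrate inward. CXCL12 from the meninges acts on CXCR4 in these progenitors, holds them near the surface and adds to the effect of Sonic hedgehog on division.

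Members held 8870224 UMIs in the Cxcr4+/1013 library and 7150957 UMIs in the Cxcr4+/+ library. The median member had 19414.5 UMIs, 5340 genes and 2.32% mitochondrial UMIs in the Cxcr4+/1013 library, against 18021.5 UMIs, 5129 genes and 2.58% in the Cxcr4+/+ library. With 1 library per genotype no difference has a replicate check and no test was run. The 95% intervals given below cover counting error only. The libraries shared 25 barcode sequences, of which 1 belonged to a Cxcr4+/1013 member and 0 to a Cxcr4+/+ member. A total of 171 Cxcr4+/1013 members (39.6%) and 161 Cxcr4+/+ members (41.9%) had at least 2 Xist UMIs and 0 UMIs of 4 Y-linked genes. The converse, a Y-linked UMI with 0 Xist UMIs, held for 216 of 432 Cxcr4+/1013 members and 169 of 384 Cxcr4+/+ members. Both kinds of transcript were found in 36 Cxcr4+/1013 members (8.33%) and 48 Cxcr4+/+ members (12.5%). Scrublet's highest doublet scores included 16 Cxcr4+/1013 members (3.70%) and 19 Cxcr4+/+ members (4.95%).

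The members carried the markers of granule cell progenitors that the rule did not use. Mfap4, which encodes an extracellular matrix protein enriched in these progenitors, had a UMI in 96.5% of Cxcr4+/1013 members and 94.0% of Cxcr4+/+ members. Barhl1, a homeobox gene of the granule lineage, had a UMI in 89.4% of Cxcr4+/1013 members and 84.4% of Cxcr4+/+ members. With every barcode thinned to 5000 UMIs, Mfap4 was found in 71.3% (66.9 to 75.6) of Cxcr4+/1013 members and 72.7% (67.8 to 77.0) of Cxcr4+/+ members. At that depth 1.97% of Cxcr4+/1013 and 3.23% of Cxcr4+/+ Purkinje-type barcodes had an Mfap4 UMI. Barhl1 was then in 54.4% of Cxcr4+/1013 and 50.7% of Cxcr4+/+ members, against 14.2% and 10.2% of Purkinje-type barcodes. Atoh1-positive progenitors with 0 UMIs of Mki67 and Top2a had Barhl1 in 55.5% and 59.3%, so it did not set members apart from them. Mfap4 was in 50.2% of these progenitors in the Cxcr4+/1013 and 64.0% in the Cxcr4+/+ library. By summed UMIs its log2 ratio of members over these progenitors was 0.33 and -0.07, so its level did not set members apart in both libraries. Purkinje-type barcodes served here as a comparison for free RNA. They also hold transcripts of their own cells, so a level at or below theirs does not show that a gene is silent in members. They had at least 5 UMIs of Car8, Foxp2 and Skor2 together and 0 UMIs of Atoh1, Pax2, Mki67 and Top2a, and numbered 718 in the Cxcr4+/1013 library and 701 in the Cxcr4+/+ library. In the GRCm38 annotation Atoh1 lies on chromosome 6 (64729125 to 64731245, plus strand), Mki67 on chromosome 7 (135689784 to 135716361, minus strand) and Top2a on chromosome 11 (98992943 to 99024189, minus strand). Mfap4 lies on chromosome 11 (61485431 to 61488900, plus strand) and Barhl1 on chromosome 2 (28907679 to 28916668, minus strand).

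Most members were well above the mitotic threshold, although Atoh1 itself was thinly sampled. Mki67, the proliferation antigen gene, and Top2a, the topoisomerase that untangles replicated DNA, together had a median of 22 UMIs and a maximum of 112 in Cxcr4+/1013 members, and a median of 21 and a maximum of 133 in Cxcr4+/+ members. Just inside the threshold, at 3 UMIs, were 37 Cxcr4+/1013 and 27 Cxcr4+/+ members. Just outside it, at 2 UMIs, were 46 Cxcr4+/1013 and 26 Cxcr4+/+ barcodes, of which 93.5% and 96.2% had an Mfap4 UMI. The median Atoh1 count was 2 UMIs in Cxcr4+/1013 members and 1 UMI in Cxcr4+/+ members, and 45.4% of the Cxcr4+/1013 and 51.0% of the Cxcr4+/+ members had exactly 1.

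The spread of the mitotic counts above the threshold is a description, since Mki67 and Top2a chose the members. More than 80 UMIs of Mki67 and Top2a were found in 20 Cxcr4+/1013 members and 3 Cxcr4+/+ members, with depths not matched. When Atoh1-positive progenitors were thinned to 5000 UMIs, 38.8% of the Cxcr4+/1013 barcodes that still had at least 3 mitotic UMIs had at least 10, against 31.4% of the Cxcr4+/+ barcodes. At least 15 were held by 10.5% in the Cxcr4+/1013 library and 5.45% in the Cxcr4+/+ library. Summed over members, Mki67 stood at 528 CPM in the Cxcr4+/1013 library and 457 CPM in the Cxcr4+/+ library, and Top2a at 885 CPM in both. CPM here means UMIs of a gene per 1000000 UMIs summed over the barcodes named.

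**Figure D1:**
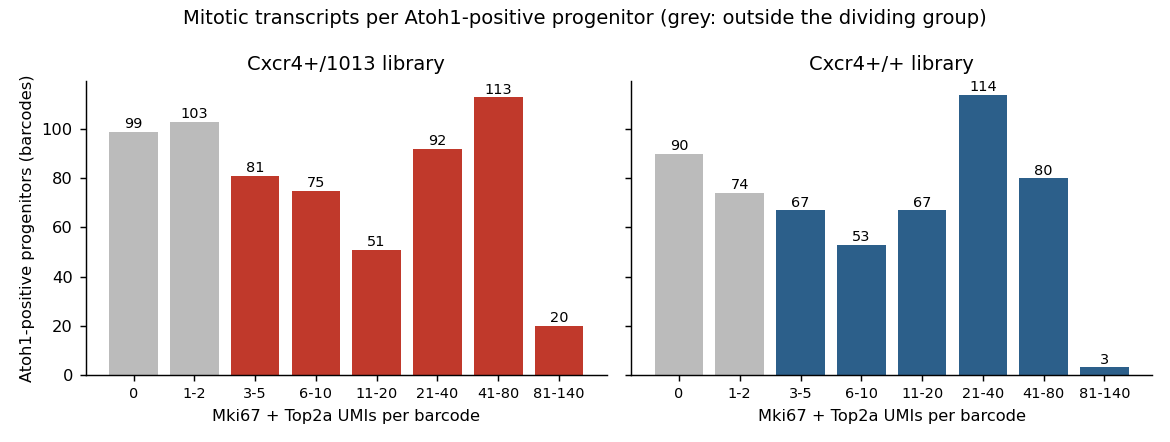
Number of Atoh1-positive progenitors (y axis) by their UMIs of Mki67 and Top2a together (x axis) in the Cxcr4+/1013 library (left) and the Cxcr4+/+ library (right), with barcodes under the threshold of 3 UMIs in grey. The Cxcr4+/1013 library has 113 barcodes with 41 to 80 UMIs and 20 with more, and the Cxcr4+/+ library has 80 and 3.

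Dividing progenitors made up 5.27% (4.80 to 5.78) of the kept barcodes in the Cxcr4+/1013 library and 4.60% (4.16 to 5.07) in the Cxcr4+/+ library. The ratio was 1.15, and its interval of 0.997 to 1.32 reached just below 1. Among Atoh1-positive progenitors of any mitotic count, 68.1% of 634 were dividing in the Cxcr4+/1013 library and 70.1% of 548 in the Cxcr4+/+ library, a difference of -1.93 points (-7.17 to 3.36). With the rule applied to barcodes thinned to 5000 UMIs the dividing share was 48.9% (44.2 to 53.8) in the Cxcr4+/1013 library and 50.1% (44.9 to 55.6) in the Cxcr4+/+ library. That difference of -1.27 points (-8.24 to 5.71) was smaller than its counting error, so a gap between the genotypes was not detectable at this depth.

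Of 11368 genes with at least 50 UMIs over both member groups, 399 (3.51%) reached 1.5-fold above their Cxcr4+/+ level in Cxcr4+/1013 members and 182 (1.6%) reached 1.5-fold below it. Higher genes were 68.7% of these calls when libraries were scaled to their total UMIs. TMM factors of edgeR turned this into 311 higher and 233 lower genes, or 57.2% higher. The median log2 ratio over all measured genes was 0.06. In Purkinje-type barcodes of the same libraries 464 of 14153 genes (3.28%) reached 1.5-fold above and 415 (2.93%) reached 1.5-fold below their Cxcr4+/+ level in the Cxcr4+/1013 library.

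The genes that stood highest in Cxcr4+/1013 members included Jund, H1fx, Taf10, Suds3 and C1ql1. Jund, a subunit of the AP-1 transcription factor, had 239 CPM in Cxcr4+/1013 members and 69.4 CPM in Cxcr4+/+ members, a log2 ratio of 1.79 (1.64 to 1.93). It was found in 95.1% of Cxcr4+/1013 and 66.1% of Cxcr4+/+ members. H1fx, a linker histone gene, had 192 CPM in Cxcr4+/1013 and 72.7 CPM in Cxcr4+/+ members (log2 ratio 1.40). Taf10, a subunit of the general factor TFIID, had 75.6 CPM in Cxcr4+/1013 and 22.2 CPM in Cxcr4+/+ members (1.77), and Suds3, part of a Sin3 deacetylase complex, had 54.6 and 18.2 CPM in the Cxcr4+/1013 and Cxcr4+/+ members (1.59). C1ql1, a secreted synaptic organiser, had 53.4 CPM in Cxcr4+/1013 and 13.4 CPM in Cxcr4+/+ members (1.99). Yrdc, Mtch1, Pdxp, Sft2d3, Prr7 and Aard stood higher by log2 ratios of 1.28 to 2.08.

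These 11 genes were also higher in Purkinje-type barcodes of the Cxcr4+/1013 library, by log2 ratios of 0.89 to 1.63 for all but Jund, whose ratio there was 1.76 (1.79 in members). The difference between the log2 ratio in members and in Purkinje-type barcodes ran from -0.15 to 0.19 for Jund and from -0.34 to 0.25 for H1fx. It lay above 0 for Taf10 (0.03 to 0.69), Pdxp (0.04 to 0.83) and Mtch1 (0.19 to 0.59). The 12th gene, Cntnap5a, stood at 12.96 CPM in Cxcr4+/1013 and 1.68 CPM in Cxcr4+/+ members, but 57.4% of its Cxcr4+/1013 UMIs came from 1 barcode.

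The genes that stood lowest in Cxcr4+/1013 members were sparse, and several of them rested on few barcodes. Lyz2, a lysozyme gene of macrophages, had 0 UMIs in Cxcr4+/1013 members and 51 UMIs in Cxcr4+/+ members, all 51 in 1 barcode. In Cxcr4+/+ members 1 barcode held 85.7% of the UMIs of the neuropeptide gene Grp, 74.4% of those of the selenium carrier gene Selenop, 72.6% of those of the haem oxygenase gene Hmox1 and 39.1% of those of the lipoprotein gene Apoe. Meis2 had 61.9% of its Cxcr4+/1013 UMIs in 1 barcode. Hes5, a Notch target, was found in 2.78% of Cxcr4+/1013 and 9.90% of Cxcr4+/+ members, at 1.69 and 6.01 CPM (log2 ratio -1.83, -2.79 to -0.95). At 5000 UMIs its share was 0.89% of Cxcr4+/1013 and 2.95% of Cxcr4+/+ members. That lay below the 9.38% and 11.8% of Purkinje-type barcodes, so it was not told apart from free RNA. Rab39, a vesicle traffic gene, was found in 5.56% of Cxcr4+/1013 and 13.02% of Cxcr4+/+ members (log2 ratio -1.38). At 5000 UMIs it was in 1.47% of Cxcr4+/1013 and 4.14% of Cxcr4+/+ members, against 1.68% and 1.77% of Purkinje-type barcodes. Sparcl1, an astrocyte matrix gene, was found in 12.3% of Cxcr4+/1013 and 22.7% of Cxcr4+/+ members (-1.05), but at 5000 UMIs in 3.41% and 6.68% of them, below the 18.1% and 21.2% of Purkinje-type barcodes. The histone gene Hist1h2an was in 4.17% of Cxcr4+/1013 and 14.3% of Cxcr4+/+ members (-1.74), and at 5000 UMIs in 1.12% and 4.13% of them, against 0.04% and 0.06% of Purkinje-type barcodes. Tfap2b and Calb2, transcripts of interneuron and unipolar brush lineages, had log2 ratios of -1.41 each. Tfap2b was found in 6.94% of Cxcr4+/1013 and 5.21% of Cxcr4+/+ members, with 38.0% of its Cxcr4+/+ UMIs in 1 barcode, and its ratio was 0.70 in members defined after thinning and 0.74 in members with at least 2 Atoh1 UMIs. Calb2 had 31.7% of its Cxcr4+/+ UMIs in 1 barcode, and its ratio was 0.18 in female members and 0.091 without barcodes holding both Xist and Y UMIs.

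Transcripts of other cell types differed between the member groups in both directions, and their part in these differences was not tested. The summed level of 5 microglial markers was 3.38 CPM in Cxcr4+/1013 and 13.7 CPM in Cxcr4+/+ members, where 1 barcode held 70.4% of the Cxcr4+/+ UMIs, and 29 Cxcr4+/1013 and 27 Cxcr4+/+ members had any. That of 7 astroglial markers was 157 and 202 CPM in the Cxcr4+/1013 and Cxcr4+/+ members. The 4 unipolar brush cell markers summed to 12.2 CPM in Cxcr4+/1013 and 23.6 CPM in Cxcr4+/+ members, and the 5 interneuron markers to 6.43 and 12.6 CPM. The 5 Purkinje cell markers stood the other way, at 207 CPM in Cxcr4+/1013 and 176 CPM in Cxcr4+/+ members (log2 ratio 0.23, 0.13 to 0.34), and so did the 4 oligodendrocyte lineage markers, at 58.5 and 49.6 CPM. At least 5 UMIs of Purkinje cell markers were found in 160 of 432 Cxcr4+/1013 and 96 of 384 Cxcr4+/+ members. At least 5 of astroglial markers were found in 84 Cxcr4+/1013 and 118 Cxcr4+/+ members. Depths were not matched for these counts. The median member had 3 UMIs of Purkinje cell markers in both libraries, and 3 and 4 UMIs of astroglial markers in the Cxcr4+/1013 and Cxcr4+/+ libraries. The astroglial markers included Slc1a3, which the member rule capped, and the interneuron markers included Gad2, which the rule excluded. The astroglial and interneuron sums and the astroglial count are therefore a description only. The glial water channel gene Aqp4 had a UMI in 1.39% of Cxcr4+/1013 and 3.39% of Cxcr4+/+ members, and the interneuron progenitor gene Pax2 in 2.55% and 2.86%. Fabp7, which progenitors of the granule layer can share with glia, was found at 5000 UMIs in 36.7% of Cxcr4+/1013 and 46.6% of Cxcr4+/+ members, against 33.9% and 38.2% of Purkinje-type barcodes.

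**Figure D2:**
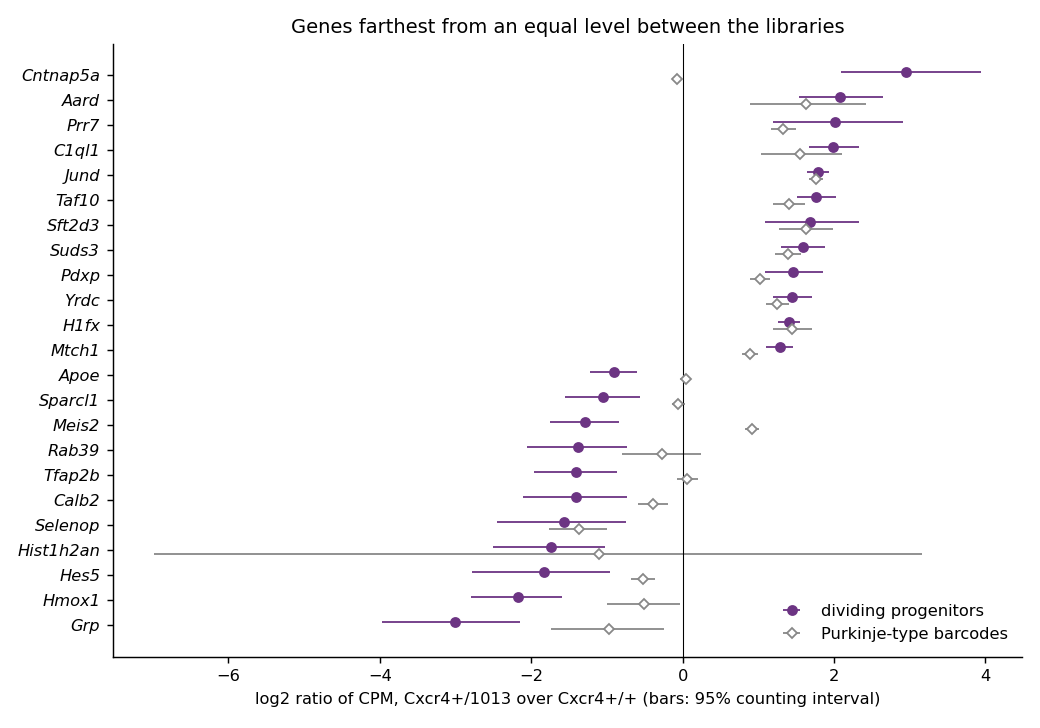
Log2 ratio of CPM, Cxcr4+/1013 over Cxcr4+/+ (x axis, bars are 95% counting intervals), in dividing progenitors (filled circles) and Purkinje-type barcodes (open diamonds) for the 23 genes named by size that had UMIs in both libraries. The genes higher in Cxcr4+/1013 members, Cntnap5a apart, are also higher in Purkinje-type barcodes, whereas Tfap2b, Sparcl1 and Apoe lie near 0 there.

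Of 8367 genes with at least 200 UMIs over both member groups, 150 (1.79%) reached 1.5-fold above their Cxcr4+/+ level in Cxcr4+/1013 members. Another 20 (0.24%) reached 1.5-fold below it. The 20 lower genes were read out after their values were seen. They included 4 replication-dependent histone genes and Cdca5, which encodes the cohesin protector sororin. How many histone genes reached this minimum is not given here, so the 4 do not describe the family. Hist1h2af had 26.0 CPM in Cxcr4+/1013 and 43.4 CPM in Cxcr4+/+ members (log2 ratio -0.73), and Hist1h3d had 20.97 and 33.1 CPM in the Cxcr4+/1013 and Cxcr4+/+ members (-0.66). Hist1h2ac and Hist2h2bb stood lower by log2 ratios of -0.70 and -0.66. Hist1h2ae, with more UMIs, was nearer parity at 106 CPM in Cxcr4+/1013 and 117 CPM in Cxcr4+/+ members (-0.14). Histone genes of these families are near-identical copies, so the split of their reads between copies is uncertain.

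Transcription factors and markers of the granule lineage were at like or slightly higher levels in Cxcr4+/1013 members. Of 12 genes, all measured, 11 had log2 ratios above 0, against 59.5% of all measured genes, and their median was 0.12 (0.17 in Purkinje-type barcodes). The group counts the matrix protein gene Mfap4 beside transcription factors. Members were chosen by Atoh1, so its part in such a count is a description only. Zic2, a zinc finger factor of the rhombic lip lineage, had 79.7 CPM in Cxcr4+/1013 and 44.9 CPM in Cxcr4+/+ members (log2 ratio 0.83, 0.64 to 1.02). It was the 1 member of the group past 1.5-fold, and its ratio in Purkinje-type barcodes was 0.31. Zic1 stood at 495 CPM in Cxcr4+/1013 and 407 CPM in Cxcr4+/+ members (0.28), Meis1 at 533 and 427 CPM (0.32), and Pax6 at 371 and 321 CPM (0.21) in the Cxcr4+/1013 and Cxcr4+/+ members. Barhl1 had 176 CPM in Cxcr4+/1013 and 168 CPM in Cxcr4+/+ members (0.07, -0.04 to 0.18). Insm1, a zinc finger factor of dividing neuronal progenitors, had 280 and 260 CPM (0.11), and Mfap4 had 291 and 308 CPM in the Cxcr4+/1013 and Cxcr4+/+ members (-0.08).

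Of 15 Sonic hedgehog pathway genes 13 were measured, 10 had log2 ratios above 0 and 3 were at least 1.5-fold higher in Cxcr4+/1013 members. Of all measured genes 59.5% were above 0 and 3.51% were at least 1.5-fold higher. The median was 0.20 in members and 0.22 in Purkinje-type barcodes. The co-receptor gene Gas1 had 94.0 CPM in Cxcr4+/1013 and 44.5 CPM in Cxcr4+/+ members, a log2 ratio of 1.08 (0.89 to 1.27), and 0.73 in Purkinje-type barcodes. Sfrp1, which encodes a secreted Wnt antagonist and is also a hedgehog-induced gene, had 293 CPM in Cxcr4+/1013 and 185 CPM in Cxcr4+/+ members (0.66), and 1.05 in Purkinje-type barcodes. Kif7, a ciliary regulator of Gli proteins, had 5.64 CPM in Cxcr4+/1013 and 3.50 CPM in Cxcr4+/+ members (0.69, -0.03 to 1.44).

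The receptor gene Ptch1, itself a target, had 217 CPM in Cxcr4+/1013 and 212 CPM in Cxcr4+/+ members (log2 ratio 0.03, -0.06 to 0.13). The transducer Smo stood at 80.5 CPM in Cxcr4+/1013 and 70.1 CPM in Cxcr4+/+ members (0.20). Gli1, the most direct target, had 31.7 CPM in Cxcr4+/1013 and 34.96 CPM in Cxcr4+/+ members (-0.14, -0.39 to 0.11), and Mycn, through which the pathway drives division, had 121 CPM in both (-0.005, -0.14 to 0.13). Gli3, the main repressor of the pathway, had 40.6 CPM in Cxcr4+/1013 and 54.4 CPM in Cxcr4+/+ members (-0.42, -0.63 to -0.21), with 0.24 in Purkinje-type barcodes. The difference of its 2 log2 ratios had an interval of -0.97 to -0.36.

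The genes that commit cells to S phase were near parity, with E2f1 as the exception. Of 16 genes 9 had log2 ratios above 0 and 1 was past 1.5-fold, with a median of 0.09. Among all measured genes 59.5% were above 0 and 3.51% were at least 1.5-fold higher. E2f1, an activator of S phase genes, had 107 CPM in Cxcr4+/1013 and 49.9 CPM in Cxcr4+/+ members (1.10, 0.92 to 1.28), and its ratio in Purkinje-type barcodes was also 1.10. The D-type cyclins that answer to Sonic hedgehog differed little, with Ccnd1 at 878 CPM in Cxcr4+/1013 and 800.5 CPM in Cxcr4+/+ members (0.13) and Ccnd2 at 777 and 673 CPM (0.21). Their kinase gene Cdk4 stood at 524 CPM in Cxcr4+/1013 and 575 CPM in Cxcr4+/+ members (-0.14), and the cyclin E gene Ccne1 at 36.9 and 43.9 CPM (-0.25, -0.48 to -0.02). The 5 measured inhibitors of cyclin-dependent kinases had ratios of -0.02 to 0.20.

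Genes of the replication machinery leaned towards lower levels in Cxcr4+/1013 members by small amounts. Of 21 DNA synthesis genes 17 had log2 ratios below 0, where 40.5% of all measured genes did, and the median was -0.14 (-0.04 in Purkinje-type barcodes). None of the 21 was past 1.5-fold. Their summed level was 3151 CPM in Cxcr4+/1013 and 3431 CPM in Cxcr4+/+ members (log2 ratio -0.12, -0.15 to -0.10). The sliding clamp gene Pcna had 360 CPM in Cxcr4+/1013 and 422 CPM in Cxcr4+/+ members (-0.23), the thymidylate synthase gene Tyms had 152 and 188 CPM (-0.30), and the polymerase delta gene Pold1 had 24.3 and 33.0 CPM (-0.44). The polymerase epsilon gene Pole stood the other way, at 74.7 CPM in Cxcr4+/1013 and 60.3 CPM in Cxcr4+/+ members (0.31). Among 17 origin licensing genes 11 were below 0 (median -0.02), with the licensing inhibitor Gmnn at 125 CPM in Cxcr4+/1013 and 154 CPM in Cxcr4+/+ members (-0.30) and Mcm7 at 229.8 and 230.0 CPM (-0.002). In Purkinje-type barcodes the ratios of Pcna, Tyms and Gmnn were -0.30, -0.28 and -0.31.

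Of 10 genes that rebuild chromatin behind the fork 8 were above 0, where 59.5% of all measured genes were, with a median of 0.13 (0.11 in Purkinje-type barcodes). The nuclear lamina gene Lmnb1 had 786 CPM in Cxcr4+/1013 and 574 CPM in Cxcr4+/+ members (0.45), and 0.51 in Purkinje-type barcodes. Ezh2, a histone methyltransferase, had 367 and 325 CPM in the Cxcr4+/1013 and Cxcr4+/+ members (0.18). Of 20 DNA damage response genes 14 were above 0, against the same 59.5%, with a median of 0.10 (0.16 in Purkinje-type barcodes). The replication checkpoint adaptor Topbp1 was past 1.5-fold at 145 CPM in Cxcr4+/1013 and 95.5 CPM in Cxcr4+/+ members (0.60). The checkpoint kinase gene Chek1 had 25.4 CPM in Cxcr4+/1013 and 32.7 CPM in Cxcr4+/+ members (-0.37).

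Mitotic genes were nearly level between the genotypes apart from a few. For the counts below, 59.5% of all measured genes were above 0 and 40.5% below. At least 1.5-fold higher were 3.51% of all measured genes and at least 1.5-fold lower 1.6%. Cdk1, the kinase that starts mitosis, had 245 CPM in Cxcr4+/1013 and 326 CPM in Cxcr4+/+ members, a log2 ratio of -0.41 (-0.50 to -0.33). Of 16 mitotic entry genes 10 were below 0 and none was past 1.5-fold (median -0.06), with Ccnb1 at 201 CPM in Cxcr4+/1013 and 206 CPM in Cxcr4+/+ members and the polo kinase gene Plk1 at 48.4 and 43.4 CPM. The 19 spindle and kinesin genes had ratios of -0.13 to 0.16 (median 0.02), and the 26 kinetochore and checkpoint genes had ratios of -0.22 to 0.31, with 18 below 0 (median -0.07). Among 16 genes of mitotic exit, Ube2s, a ubiquitin conjugating enzyme of the anaphase promoting complex, had 511 CPM in Cxcr4+/1013 and 283 CPM in Cxcr4+/+ members (0.85), and 0.77 in Purkinje-type barcodes. Its inhibitor gene Fbxo5 had 145 CPM in Cxcr4+/1013 and 188 CPM in Cxcr4+/+ members (-0.37). Cdca5 was the 1 gene of 15 for condensin and cohesin past 1.5-fold, at 21.1 CPM in Cxcr4+/1013 and 34.1 CPM in Cxcr4+/+ members (-0.69). Of 13 centrosome genes, many of them linked to microcephaly in humans, 11 were above 0 (median 0.14, -0.17 to 0.27).

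**Figure D3:**
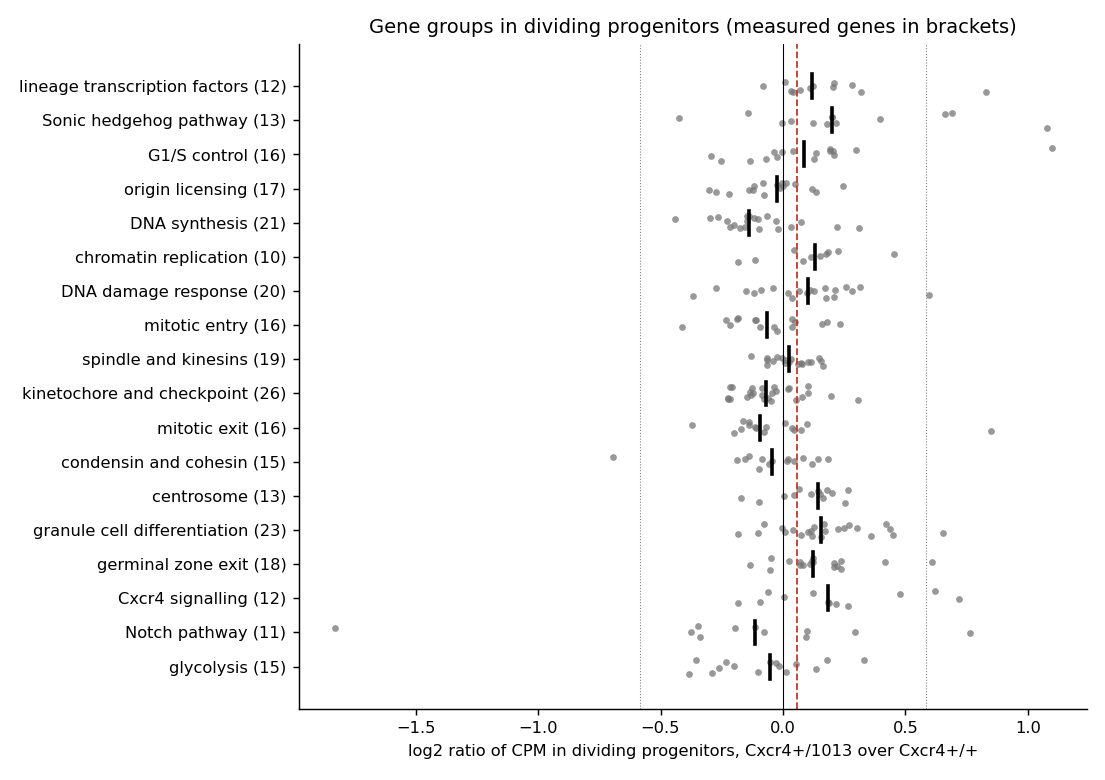
Log2 ratio of CPM in dividing progenitors, Cxcr4+/1013 over Cxcr4+/+ (x axis), for each measured gene (grey points) of 18 groups, with group medians (black bars), the median of all genes at 0.06 (dashed line) and 1.5-fold (dotted lines). Group medians lie between -0.14 for DNA synthesis and 0.20 for the Sonic hedgehog pathway, all inside the dotted lines. The group labelled lineage transcription factors also counts Mfap4.

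Members were ordered within each library by their S phase and M phase transcripts. A position was computed as the share of M phase UMIs among the UMIs of 12 S phase and 12 M phase genes, and was divided into 5 equal bins. A high share does not tell cells in mitosis from cells that have just left it, so the M end may hold both. From the S end to the M end the bins held 107, 57, 65, 101 and 102 Cxcr4+/1013 members and 90, 62, 56, 88 and 88 Cxcr4+/+ members. The share in the last bin was 23.6% (19.7 to 27.9) in the Cxcr4+/1013 library and 22.9% (18.8 to 27.4) in the Cxcr4+/+ library, and in the first bin 24.8% (20.8 to 29.1) and 23.4% (19.3 to 28.0). Within 2 points of a bin edge lay 64 Cxcr4+/1013 and 50 Cxcr4+/+ members. Median depth was greatest in the last bin, at 22959.5 UMIs in Cxcr4+/1013 and 20991.5 UMIs in Cxcr4+/+ members.

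Genes that did not define the order also varied along it. Ccne1, the cyclin of S phase entry, had 64.8, 49.1, 42.1, 30.7 and 9.86 CPM along the bins in Cxcr4+/1013 members and 72.7, 74.8, 37.6, 37.0 and 9.79 CPM in Cxcr4+/+ members. Cdc25c, the phosphatase that activates Cdk1, had 7.78, 18.6, 32.7, 48.3 and 93.0 CPM in Cxcr4+/1013 members and 6.66, 15.1, 30.5, 54.3 and 100.2 CPM in Cxcr4+/+ members. Ccnd1 was highest at the M end, at 742, 648, 779, 950.0 and 1103 CPM in Cxcr4+/1013 members and 690.5, 584, 702, 910.0 and 993 CPM in Cxcr4+/+ members. For each of these genes the first and last bins stood in the same order in both libraries.

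Gli3 showed one of the steepest gradients among signalling genes. Its level along the bins was 77.8, 54.1, 46.4, 21.95 and 15.9 CPM in Cxcr4+/1013 members and 95.3, 84.6, 68.1, 22.1 and 21.9 CPM in Cxcr4+/+ members. The log2 ratio of the last over the first bin was -2.29 (-2.86 to -1.77) in the Cxcr4+/1013 library and -2.12 (-2.68 to -1.60) in the Cxcr4+/+ library. The activator Gli2 moved less (-0.26 in Cxcr4+/1013 and -0.28 in Cxcr4+/+ members) and Gli1 had intervals that included 0 in both libraries. Grk5, a kinase that phosphorylates G protein-coupled receptors, had ratios of -1.48 (-2.16 to -0.83) in Cxcr4+/1013 and -1.78 (-2.51 to -1.09) in Cxcr4+/+ members. The cell cycle inhibitor gene Cdkn1a had ratios of -1.07 (-1.72 to -0.44) in Cxcr4+/1013 and -3.15 (-4.34 to -2.14) in Cxcr4+/+ members. At 5000 UMIs it was in 9.67% of Cxcr4+/1013 and 7.50% of Cxcr4+/+ members, below the 10.6% and 12.4% of Purkinje-type barcodes.

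Of 23 granule cell differentiation genes, 15 were higher in the last than in the first bin in both libraries and 0 were lower in both, against 34.8% and 35.7% of 9620 genes with at least 50 UMIs in each library. Neurod1 had 286, 370.0, 386, 477 and 484 CPM along the bins in Cxcr4+/1013 members and 259, 276, 275, 370.0 and 376 CPM in Cxcr4+/+ members, and was higher in the Cxcr4+/1013 library in all 5 bins. Tubb3, the neuronal tubulin gene, had a log2 ratio of last over first bin of 0.72 in Cxcr4+/1013 and 0.61 in Cxcr4+/+ members, Neurod2 of 0.78 and 0.64, and the inhibitor gene Cdkn1b of 0.64 and 0.52. Mfap4 was nearly flat, at -0.07 in Cxcr4+/1013 and -0.01 in Cxcr4+/+ members. Atoh1 had 0.02 and -0.21, but the rule held it at 1 UMI or more in every member. The summed level of 10 genes of dissociation stress was 445 CPM in the first and 244 CPM in the last bin of Cxcr4+/1013 members, and 446 and 316 CPM in those bins of Cxcr4+/+ members.

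Cxcr4 and a few other genes had different profiles in the libraries. Cxcr4 had 56.5, 62.6, 73.3, 67.8 and 46.3 CPM along the bins in Cxcr4+/1013 members and 43.3, 65.0, 65.4, 74.0 and 64.5 CPM in Cxcr4+/+ members. The ratio of last over first bin was -0.29 (-0.69 to 0.11) in the Cxcr4+/1013 library and 0.57 (0.12 to 1.04) in the Cxcr4+/+ library. The guidance receptor gene Robo1 had ratios of -0.38 (-0.58 to -0.17) in Cxcr4+/1013 and 0.62 (0.36 to 0.88) in Cxcr4+/+ members, and Notch2 had -0.28 (-0.84 to 0.29) and 1.52 (0.76 to 2.34). These profiles were picked after their values were seen and have no replicate check.

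**Figure D4:**
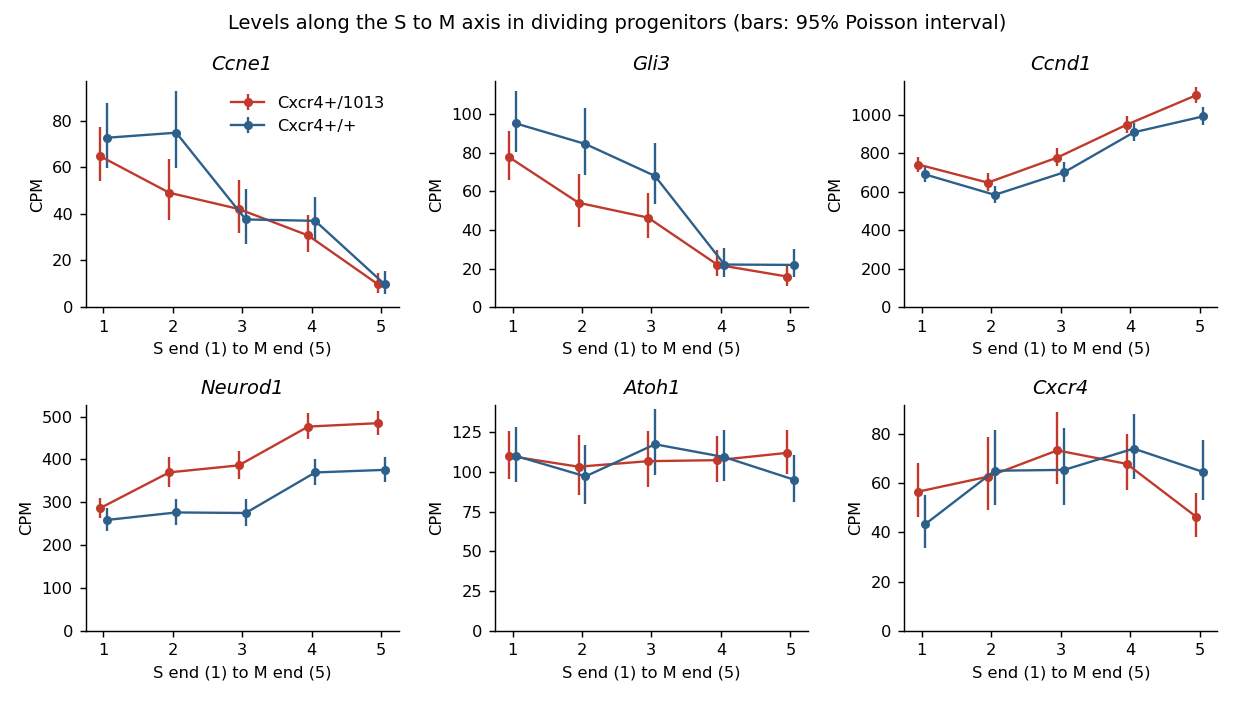
CPM (y axes) of 6 genes in 5 bins along the S to M order (x axes, 1 at the S end and 5 at the M end) in dividing progenitors of the Cxcr4+/1013 library (red) and the Cxcr4+/+ library (blue), with 95% Poisson intervals as bars. Ccne1 and Gli3 are lowest and Ccnd1 and Neurod1 highest towards the M end in both libraries, Atoh1 was held at 1 UMI or more by the rule, and Cxcr4 is at 46.3 CPM in the Cxcr4+/1013 and 64.5 CPM in the Cxcr4+/+ members of the last bin.

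The genes at either end of the order differed in short words of their promoters. Of 189 cell cycle genes with at least 50 UMIs in each member group, 63 were at least 2-fold higher in the last than in the first bin in both libraries (the M end) and 39 at least 2-fold lower (the S end). RefSeq promoter windows of GRCm38.p6, 250 bases before to 50 after the start, were matched by symbol for 51 of the 63 and 31 of the 39 genes. The cell cycle genes homology region (CHR), a word bound by the DREAM and MuvB complexes of late cell cycle genes, was searched as TTTGAA on both strands. It was in 38 of 55 M end windows (69.1%), in 5 of 37 S end windows (13.5%) and in 17.9% of all 32851 windows. The E2F word was searched on both strands as TTTCCCGC, TTTGGCGC, TTTCGCGC or TTTGCCGC, which can overlap each other. It was in 17 of 37 S end windows (45.9%), in 4 of 55 M end windows (7.27%) and in 2.26% of all windows. Without the genes that define the order, the CHR word was in 30 of 45 M end windows (66.7%) and the E2F word in 11 of 29 S end windows (37.9%). The CCAAT box, searched as CCAAT on both strands, was in 44 of 55 M end windows, 67.6% of S end and 37.4% of all windows. A match is a description of the letters and not evidence of binding.

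The sequences below show such promoters for each end. Genes that define the order were left out, as were genes with no RefSeq window, with a window on a chromosome not printed here, or with a window whose start lay over 200 bases from the gene start in GENCODE. Of the remaining genes, ranked by the smaller of their gradients in the libraries, the first 3 with the word inside the printed stretch and the first 1 with no such word in its window are shown. They run from 150 bases before to 25 after the start, 5′ to 3′ on the strand of the gene, with the CHR word in capitals for the M end genes Aspm, Kif23, Kifc1 and Cks2. Aspm encodes a spindle pole protein, Kif23 a kinesin of the cleavage furrow, Kifc1 a kinesin that gathers spindle poles, and Cks2 a subunit that binds Cdk1.
Aspm (chr1:139454623-139454797, plus strand): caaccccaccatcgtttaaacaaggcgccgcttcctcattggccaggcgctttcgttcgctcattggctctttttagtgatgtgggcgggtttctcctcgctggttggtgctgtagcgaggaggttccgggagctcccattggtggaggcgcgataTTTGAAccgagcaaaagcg
Kif23 (chr9:61946775-61946949, minus strand): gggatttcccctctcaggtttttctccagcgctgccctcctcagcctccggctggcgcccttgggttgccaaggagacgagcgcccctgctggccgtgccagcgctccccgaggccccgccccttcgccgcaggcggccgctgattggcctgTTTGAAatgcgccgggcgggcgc
Kifc1 (chr17:33890609-33890783, minus strand): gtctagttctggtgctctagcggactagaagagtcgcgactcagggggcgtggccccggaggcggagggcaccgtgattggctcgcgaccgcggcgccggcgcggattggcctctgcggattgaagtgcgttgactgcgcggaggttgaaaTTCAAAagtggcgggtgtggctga
Cks2 (chr13:51645082-51645256, plus strand): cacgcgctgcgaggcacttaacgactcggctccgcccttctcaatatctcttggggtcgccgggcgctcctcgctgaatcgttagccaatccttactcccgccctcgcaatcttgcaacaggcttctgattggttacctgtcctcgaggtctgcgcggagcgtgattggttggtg
The log2 ratio of the last over the first bin was 3.75 in Cxcr4+/1013 and 3.25 in Cxcr4+/+ members for Aspm, 2.94 and 2.62 for Kif23, 2.65 and 2.40 for Kifc1, and 3.72 and 3.21 for Cks2. In Aspm, Kif23 and, in the reverse direction, Kifc1 the CHR word lies just after the start, and the Cks2 stretch shows none.

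For the S end genes Cdk2, Pola1, Cdc25a and Ccne1 the capitals mark the E2F word. Cdk2 encodes the kinase of cyclin E, Pola1 the catalytic subunit of the polymerase that starts new strands, and Cdc25a the phosphatase that activates Cdk2.
Cdk2 (chr10:128705027-128705201, minus strand): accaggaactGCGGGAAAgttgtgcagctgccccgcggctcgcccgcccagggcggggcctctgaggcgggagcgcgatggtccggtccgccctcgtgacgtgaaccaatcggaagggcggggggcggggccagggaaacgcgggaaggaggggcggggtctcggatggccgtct
Pola1 (chrX:93632131-93632305, minus strand): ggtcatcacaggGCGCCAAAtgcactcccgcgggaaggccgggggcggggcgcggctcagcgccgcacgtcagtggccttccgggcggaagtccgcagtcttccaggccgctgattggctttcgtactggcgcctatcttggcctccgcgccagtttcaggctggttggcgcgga
Cdc25a (chr9:109875429-109875603, plus strand): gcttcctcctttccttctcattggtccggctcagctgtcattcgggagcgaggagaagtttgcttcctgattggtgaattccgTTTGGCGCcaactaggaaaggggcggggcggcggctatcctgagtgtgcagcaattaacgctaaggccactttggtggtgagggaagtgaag
Ccne1 (chr7:38107466-38107640, minus strand): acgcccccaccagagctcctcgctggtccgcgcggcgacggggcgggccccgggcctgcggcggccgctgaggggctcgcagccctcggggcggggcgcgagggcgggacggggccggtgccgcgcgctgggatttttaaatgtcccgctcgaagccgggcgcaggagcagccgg
The log2 ratio of the last over the first bin was -1.86 in Cxcr4+/1013 and -1.60 in Cxcr4+/+ members for Cdk2, -2.001 and -1.50 for Pola1, -1.21 and -1.30 for Cdc25a, and -2.72 and -2.89 for Ccne1. The E2F word begins 140 bases before the start in Cdk2, 138 in Pola1 and 67 in Cdc25a, and the Ccne1 window shows none of the 4 spellings.

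Members were next set against Atoh1-positive progenitors with 0 UMIs of Mki67 and Top2a, of which there were 99 in the Cxcr4+/1013 and 90 in the Cxcr4+/+ library. The rule divides these groups by mitotic transcripts, so the level of cell cycle genes is a description. Of 10061 genes, 889 (8.84%) were past 1.5-fold upward in members of both libraries and 1023 (10.2%) were past 1.5-fold downward. Plk1 had 48.4 CPM in members and 0.78 CPM in non-mitotic progenitors of the Cxcr4+/1013 library, and 43.4 and 0.95 CPM in those of the Cxcr4+/+ library. Kif14, a kinesin of cytokinesis, had 0 UMIs in non-mitotic progenitors of both libraries, and members stood at least 16.2-fold higher in the Cxcr4+/1013 and at least 12.1-fold higher in the Cxcr4+/+ library, with 3 counts over the group as the floor. Of 21 DNA synthesis genes 20, and of 19 spindle genes 18, were past 1.5-fold.

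Hedgehog signalling genes were among those higher in members. Of 11 measured genes 6 were past 1.5-fold in both libraries, where 8.84% of all genes were. Gli1 had log2 ratios of 1.65 in the Cxcr4+/1013 and 1.62 in the Cxcr4+/+ library, and Gli2 of 1.22 and 0.96. Ccnd1 had ratios of 1.46 in the Cxcr4+/1013 and 1.19 in the Cxcr4+/+ library, Cxcr4 of 1.10 and 0.87, the growth factor receptor gene Pdgfra of 1.58 and 1.36, and the hexokinase gene Hk2, which drives aerobic glycolysis in these progenitors, of 1.54 and 1.51. The inhibitor gene Cdkn2c was higher in members too, at 3.20 in the Cxcr4+/1013 and 2.78 in the Cxcr4+/+ library. Atoh1, which the rule used in both groups, stood at -0.27 and -0.46.

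Neuronal differentiation genes were lower in members. Of 23 genes 15 were at least 1.5-fold lower in both libraries, where 10.2% of all genes were. Tubb3 had log2 ratios of -1.82 in the Cxcr4+/1013 and -1.64 in the Cxcr4+/+ library. Cntn2, the axonal adhesion molecule of the inner external granule layer, had -1.78 and -2.20. The inhibitor genes Cdkn1a and Cdkn1c had ratios of -1.46 and -2.74 in the Cxcr4+/1013 library and -1.68 and -1.21 in the Cxcr4+/+ library. At 5000 UMIs Cdkn1c was found in 11.5% of Cxcr4+/1013 and 9.91% of Cxcr4+/+ members, against 43.5% and 44.0% of Purkinje-type barcodes. Both genes lay below their Purkinje-type shares, so low expression in members was not told apart from free RNA. The immediate early gene Fos had -1.40 in the Cxcr4+/1013 and -1.33 in the Cxcr4+/+ library. Genes with the largest gap included Unc5d, a netrin receptor of migrating neurons, at 12.5 CPM in members and 221 CPM in non-mitotic progenitors of the Cxcr4+/1013 library and 12.03 and 131 CPM in those of the Cxcr4+/+ library.

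Unipolar brush cell markers moved with this contrast. Eomes, which defines unipolar brush cells, had a UMI in 39.4% of Cxcr4+/1013 and 14.4% of Cxcr4+/+ non-mitotic progenitors, against 8.56% of Cxcr4+/1013 and 9.11% of Cxcr4+/+ members. Purkinje-type barcodes, whose median depth was 22177.5 UMIs in the Cxcr4+/1013 and 23052 UMIs in the Cxcr4+/+ library, had an Eomes UMI in 6.13% and 7.13%. The median depth of non-mitotic progenitors was 13489 and 11658 UMIs. The 4 markers of these cells summed to 380.0 CPM in Cxcr4+/1013 and 188 CPM in Cxcr4+/+ non-mitotic progenitors. When non-mitotic barcodes with an Eomes UMI were left out, 60 Cxcr4+/1013 and 77 Cxcr4+/+ barcodes remained and 10 of 23 differentiation genes were at least 1.5-fold lower in members. Neurod1 then had ratios of 0.07 in the Cxcr4+/1013 and -0.45 in the Cxcr4+/+ library, where all non-mitotic barcodes gave -0.58 and -0.57. Tubb3 had -1.47 and -1.40, Cntn2 had -1.16 and -2.09, Cdkn1c had -1.78 and -1.29, and Gli1 had 1.23 and 1.48 in the Cxcr4+/1013 and Cxcr4+/+ libraries. Only 2 of 11 hedgehog genes were then past 1.5-fold in both libraries. The shares of 8.84% and 10.2% over all genes given above belong to the contrast with all non-mitotic barcodes. Over all genes, the counts upward and downward in this narrower contrast stayed within 1.5-fold of the 889 and 1023 given there.

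Dividing members already carried neuronal transcripts, at slightly higher levels in the Cxcr4+/1013 library. Of 23 granule cell differentiation genes 19 had log2 ratios above 0, against 59.5% of all genes, and the median was 0.15 (0.10 in Purkinje-type barcodes). Neurod1, the first neuronal bHLH factor of the lineage, had 409 CPM in Cxcr4+/1013 and 318 CPM in Cxcr4+/+ members, a log2 ratio of 0.36 (0.28 to 0.44), while its ratio in Purkinje-type barcodes was 0.09. Cntn2 had 22.4 CPM in Cxcr4+/1013 and 14.3 CPM in Cxcr4+/+ members (0.65, 0.30 to 1.01), the bHLH gene Nhlh1 had 26.6 and 19.9 CPM (0.42), and the antiproliferative gene Btg2 had 76.7 and 56.6 CPM (0.44). The RNA-binding protein gene Elavl4 had 124 CPM in Cxcr4+/1013 and 90.6 CPM in Cxcr4+/+ members (0.45), and 0.41 in Purkinje-type barcodes. The growth cone genes Gap43 and Dpysl3 stood at -0.08 and -0.18.

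The shares of members with these transcripts were compared at matched depth. At 5000 UMIs Neurod1 was found in 71.9% (67.4 to 76.1) of Cxcr4+/1013 and 66.8% (61.9 to 71.5) of Cxcr4+/+ members, with 7.66% and 8.02% of Purkinje-type barcodes. Cntn2 was found in 9.36% (6.73 to 12.5) of Cxcr4+/1013 and 6.21% (4.06 to 9.18) of Cxcr4+/+ members. In Purkinje-type barcodes its share was 5.91% in the Cxcr4+/1013 and 5.94% in the Cxcr4+/+ library, so its share in Cxcr4+/+ members was close to theirs. Btg2 was in 29.2% (24.8 to 33.6) of Cxcr4+/1013 and 23.9% (19.8 to 28.6) of Cxcr4+/+ members, with 21.9% and 21.8% of Purkinje-type barcodes. Jund was in 65.8% of Cxcr4+/1013 and 28.1% of Cxcr4+/+ members, close to the 68.6% and 31.7% of Purkinje-type barcodes. Thinning left out 2 Cxcr4+/1013 members and 1 Cxcr4+/+ member.

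**Figure D5:**
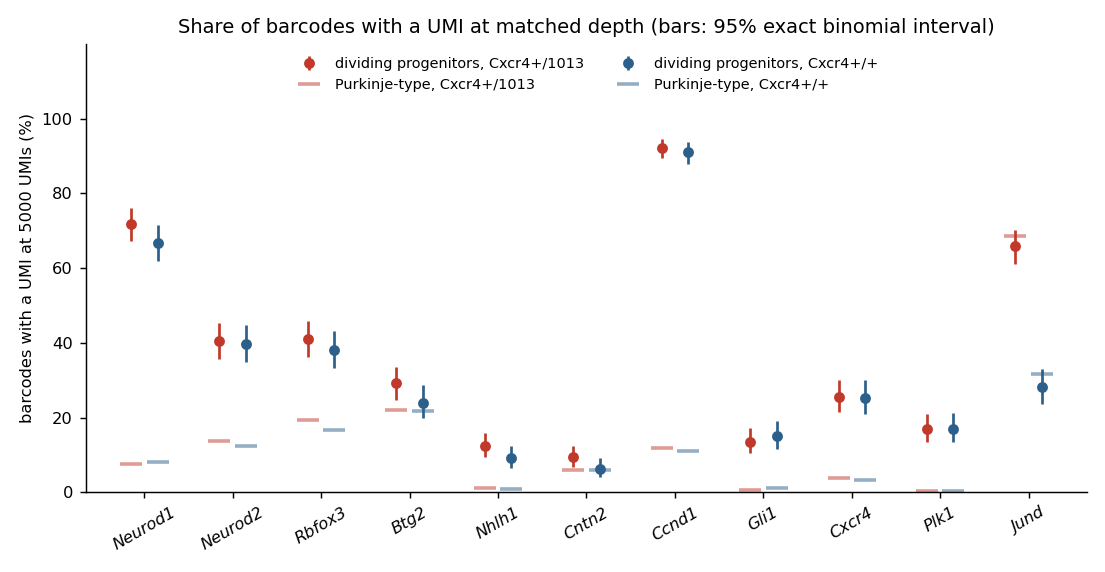
Share of barcodes with a UMI of each gene after thinning to 5000 UMIs (y axis) in dividing progenitors (points with 95% exact binomial intervals) and in Purkinje-type barcodes (dashes), Cxcr4+/1013 in red and Cxcr4+/+ in blue. Intervals of the libraries overlap in dividing progenitors for all genes shown but Jund, which differs as much in Purkinje-type barcodes.

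Cxcr4 itself stood at the same level in members of both genotypes. It had 59.9 CPM in Cxcr4+/1013 and 62.5 CPM in Cxcr4+/+ members (log2 ratio -0.06, -0.25 to 0.12). At 5000 UMIs it was found in 25.6% (21.5 to 29.98) of Cxcr4+/1013 and 25.3% (21.05 to 29.99) of Cxcr4+/+ members, against 3.72% and 3.26% of Purkinje-type barcodes. Transcripts of the 1013 and wild-type alleles were counted together. Ackr3, the scavenger receptor for CXCL12, was in 0.41% of Cxcr4+/1013 and 0.56% of Cxcr4+/+ members. That lay below the 2.93% and 2.97% of Purkinje-type barcodes, so it was not told apart from free RNA. Of 12 measured genes of Cxcr4 signalling 9 were above 0 and 2 past 1.5-fold, against 59.5% and 3.51% of all measured genes. The median was 0.18, and 0.13 in Purkinje-type barcodes. Grk6, a kinase that phosphorylates the tail of CXCR4, had 22.1 CPM in Cxcr4+/1013 and 13.4 CPM in Cxcr4+/+ members (0.72, 0.36 to 1.09), with 0.08 in Purkinje-type barcodes. The beta-arrestin gene Arrb1 had 4.51 and 2.94 CPM (0.62, -0.18 to 1.46), and the GTPase gene Rac1 had 206 and 148 CPM (0.48) in the Cxcr4+/1013 and Cxcr4+/+ members.

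Notch pathway genes were low or uneven in members. Of 11 measured genes 7 were below 0, against 40.5% of all measured genes (median -0.12). Hes6, which opposes Hes1, had 79.8 CPM in Cxcr4+/1013 and 102 CPM in Cxcr4+/+ members (-0.35, -0.50 to -0.20), the glycosyltransferase gene Mfng had 17.4 and 22.5 CPM (-0.38), and the ligand gene Dll3 had 11.4 and 6.71 CPM (0.76, 0.25 to 1.29). Hes1 had 29.5 CPM in Cxcr4+/1013 and 33.8 CPM in Cxcr4+/+ members (-0.20, -0.45 to 0.06). Of 18 genes of adhesion, polarity and germinal zone exit 15 were above 0, against 59.5% of all measured genes (median 0.12, 0.08 in Purkinje-type barcodes). The ubiquitin ligase gene Siah1a, which holds progenitors in the germinal zone, had 91.1 CPM in Cxcr4+/1013 and 59.7 CPM in Cxcr4+/+ members (0.61). Zeb1, which restrains granule cell maturation, had 371 and 315 CPM (0.24), and the netrin receptor gene Dcc had 4388 and 3719 CPM (0.24) in the Cxcr4+/1013 and Cxcr4+/+ members.

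Several glycolytic enzymes stood slightly lower in Cxcr4+/1013 members. Of 15 measured genes 10 were below 0, against 40.5% of all measured genes (median -0.05). Their summed level with 1 unmeasured gene was 1921 CPM in Cxcr4+/1013 and 2263 CPM in Cxcr4+/+ members (log2 ratio -0.24, -0.27 to -0.20). Gapdh had 683 CPM in Cxcr4+/1013 and 875 CPM in Cxcr4+/+ members (-0.36, -0.41 to -0.31), with -0.14 in Purkinje-type barcodes. Gpi1 had 57.0 and 74.4 CPM (-0.38), Pgam1 had 216 and 259 CPM (-0.26) and Pkm had 270.1 and 317 CPM (-0.23) in the Cxcr4+/1013 and Cxcr4+/+ members. The transcript of Hk2 stood the other way, at 20.4 CPM in Cxcr4+/1013 and 16.2 CPM in Cxcr4+/+ members (0.33, -0.01 to 0.68). Of 10 genes of dissociation stress 7 were measured, with a median of -0.17, the same as in Purkinje-type barcodes. The direction of this median turned between male and female members, as given below.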

How the data were processed

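Per the submitters' processing notes, Cell Ranger 7.2 and bcl2fastq 2.20.0.4222 were used with the mm10 build. Annotation release and counting of intronic reads are not given in the sources used here, so overlapping and near-identical genes may share reads. In the deposited matrices each value was a raw count of UMIs for a gene in a barcode, not normalized by the authors. UMIs were summed over barcodes and scaled to CPM (Python 3.11.15, numpy 2.4.6, scipy 1.17.1). Each genotype had 1 library, so no test was run. Ratios carry exact conditional binomial, shares exact Clopper-Pearson and sums exact Poisson 95% intervals. Differences between shares carry Newcombe intervals, and differences between log2 ratios carry normal intervals from the counts. Matched-depth shares of the rule are means of 20 thinned draws, and those of single genes are exact expectations. Doublets were kept, and marked with Scrublet (scanpy 1.11.5) at 0.8% per 1000 barcodes for an alternative.

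The members and gene lists were chosen with earlier results of these data known. Genes named by size were the 12 higher and 12 lower in Cxcr4+/1013 members, with at least 50 UMIs, whose interval bound nearest to parity was farthest from it, and the 12 and 12 with the largest gap to non-mitotic progenitors in both libraries. Sex-linked, mitochondrial, ribosomal protein, haemoglobin and predicted genes were left out, and list genes could also be named. The printed promoters were taken by gradient among genes with a RefSeq window near the GENCODE gene start, and by whether they held the word. Alternatives changed the rule, depth, scaling with TMM (edgeR 4.0.16) or size factors (DESeq2 1.42.0, R 4.3.3), the minimum count, doublets, sex and weighting. Loci are from GENCODE vM21 and promoters from RefSeq.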

Additional observations from a re-analysis of the deposited data

Results flagged for a closer look

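Each library held cells of both sexes, and 6 of 329 genes looked at had opposite directions in female and male members with both counting intervals clear of 0. The difference between the sexes was not tested, and none of the sources used here states the number of animals of each sex. Insm1 had a log2 ratio of Cxcr4+/1013 over Cxcr4+/+ of -0.17 (-0.31 to -0.03) in female and 0.31 (0.18 to 0.44) in male members. Nhlh2, a bHLH gene of early neurons, had -0.32 (-0.56 to -0.09) in female and 0.37 (0.16 to 0.59) in male members. Hey1, a Notch target, had -0.53 (-0.81 to -0.25) in female and 0.38 (0.11 to 0.65) in male members. Robo1 had -0.19 (-0.36 to -0.02) in female and 0.47 (0.31 to 0.64) in male members, and the immediate early gene Egr1 had -0.40 (-0.64 to -0.15) and 0.32 (0.05 to 0.61). The separase gene Espl1 stood the other way, at 0.40 (0.03 to 0.77) in female and -0.35 (-0.69 to -0.000) in male members, where the interval only just cleared 0.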

How the results depend on the processing

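No paired analysis was possible because each genotype had 1 library with no replicate number. The ratio of member shares was 1.04 to 1.28 over all alternatives, and the gap in dividing share at matched depth was -2.52 to 4.35 points, all within the counting intervals of the values reported. The interval of the ratio lay above 1 with at least 2 mitotic UMIs (1.04 to 1.36), with at least 2 Atoh1 UMIs (1.05 to 1.56), without the highest doublet scores (1.01 to 1.34) and without barcodes holding both Xist and Y UMIs (1.03 to 1.38). Counts of genes at least 1.5-fold higher and lower were 3735 (18.3%) and 2919 (14.3%) of 20369 genes with no minimum. With a minimum of 200 UMIs they were 150 (1.79%) and 20 (0.24%) of 8367 genes. With TMM or DESeq2 scaling log2 ratios shift by -0.06, so genes reported at ratios between 0 and 0.06 turn below 0. In male cells only, the medians were 0.24 for lineage factors and markers, 0.33 for differentiation genes (0.11 in female cells), -0.22 for glycolysis and 0.16 for dissociation stress, which was -0.54 in female cells only. Among genes at least 1.5-fold apart, those whose direction turned were low ones. Genes with smaller ratios could turn at higher levels too, as Insm1 did in female members. Grp had 3.61 for members defined after thinning, 2.29 with at least 2 Atoh1 UMIs, 1.27 without doublets, 2.31 in male cells and 2.96 without barcodes holding both Xist and Y UMIs. Tfap2b had 0.70 after thinning and 0.74 with at least 2 Atoh1 UMIs, Meis2 0.82 and Apoe 0.35 after thinning. Selenop had 0.27 with at least 2 Atoh1 UMIs, 0.31 without doublets, 0.91 in male cells and 0.23 without its highest member, and Calb2 had 0.18 in female cells and 0.091 without barcodes holding both Xist and Y UMIs. The cause was not tested. Alternatives on mixed-sex barcodes, the highest member and Eomes were chosen after seeing the data.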
